A study of Mus musculus with 6 samples.

Results

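The heat shock genes described here are 10 genes of the cytosolic and mitochondrial heat shock response, Hspa1a, Hspa1b, Hsph1, Dnajb1, Hsp90aa1, Hspe1, Hspd1, Bag3, Hspb1 and Hspa8, out of 24815 genes in the data. Each gene is the sum of the deposited UCSC transcript identifiers that shared at least 50% of their exonic bases with it on the same strand. Of the 10 genes, 9 had at least 1 count and 8 had enough counts to be tested, among 10516 tested genes in all. RNA was sequenced from isolated kidney collecting duct cells of male C57BL/6J mice fed 1 of 2 diets for 5 days. There were 3 libraries from mice on low-NaCl food (0.01 to 0.02% sodium) and 3 from mice on high-NaCl food (2.4% sodium). The series is titled for the response to aldosterone, a hormone that dietary sodium restriction raises, and both groups were on a diet of set sodium content. The labels give neither the age of the mice nor how the cells were isolated, and are silent on how many animals stand behind a library. The spread behind each p-value is thus between libraries and may be technical only.

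Heat shock genes are switched on when unfolded proteins accumulate, by heat shock factor HSF1 binding inverted repeats of the unit nGAAn, called heat shock elements. The cytosolic products bind unfolded chains: the inducible Hsp70 proteins of Hspa1a and Hspa1b and the constitutive one of Hspa8 work with a J-protein (Dnajb1) and nucleotide exchange factors (Hsph1, Bag3), and pass clients to Hsp90. In mitochondria, the chamber of Hspd1 and its lid Hspe1 fold imported proteins. Kidney medulla cells, exposed to high salt and urea, are known for abundant Hsp70 and small heat shock protein, and enzymatic or mechanical dissociation of tissue can itself induce the cytosolic genes.

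The promoter sequences are shown for the gene pairs on which the results turn, because each pair is linked by its DNA: Hspe1 and Hspd1 are transcribed away from each other from a shared stretch, and Hspa1a and Hspa1b are near copies. Sequences and start sites are from RefSeq, build GRCm38.p6. The Hspe1 stretch runs from the Hspd1 start to the Hspe1 start, chr1:55087933-55088147 on the plus strand. The others are the 120 bases before each start, chr17:34972157-34972276 for Hspa1a and chr17:34959239-34959358 for Hspa1b, both on the minus strand. Capitals mark matches to heat shock element letters of 2 units, GAANNTTC or TTCNNGAA, where N is any base. A match of 3 units is the same letters with NNGAA added after GAANNTTC or NNTTC added after TTCNNGAA, so it overlaps matches of 2 units.
Hspe1 and Hspd1: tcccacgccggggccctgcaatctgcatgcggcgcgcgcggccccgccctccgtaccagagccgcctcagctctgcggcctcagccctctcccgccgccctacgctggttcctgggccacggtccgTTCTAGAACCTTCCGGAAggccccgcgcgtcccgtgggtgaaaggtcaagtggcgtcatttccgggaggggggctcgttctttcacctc
Hspa1a: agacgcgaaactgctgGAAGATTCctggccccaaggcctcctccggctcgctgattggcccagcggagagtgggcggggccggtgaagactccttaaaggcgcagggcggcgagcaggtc
Hspa1b: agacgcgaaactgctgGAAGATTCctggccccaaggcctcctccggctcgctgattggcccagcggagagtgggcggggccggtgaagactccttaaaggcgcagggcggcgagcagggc

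The stretch between Hspd1 and Hspe1 held 1 run of capitals in which 3 matches of 2 units and 2 matches of 3 units overlapped, and 76 bases lay between the first 3-unit match and the Hspe1 start. The Hspa1a and Hspa1b promoters each held 1 match of 2 units and 0 of 3 units. Over the 120 bases shown they differed at 1 base, and over the whole RefSeq window of 300 bases at 4. Each such window runs from 250 bases before to 50 after a start, and all were searched on both strands. Of 32851 windows, 15.06% held a 2-unit match and 0.6027% a 3-unit match. Hsph1 held 3 matches of 2 units and 1 of 3 units in each of its windows, Hspb1 held 2 of 2 units, Bag3 1, and Dnajb1 and the window of a second Hspd1 start 0. Hsp90aa1 and Hspa8 had no window in the table. These matches describe letters and not bound sites.

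How much of each gene could be counted set what could be learned. A read in an exon shared by several identifiers was not assigned, by the counting program's defaults, so only bases in exons of 1 identifier are countable. Every base was countable for Hspa1a, Hspa1b, Hspe1, Hspd1 and Bag3. The countable share was 47.9% for Hsph1, 33.4% for Hspa8, 23.3% for Dnajb1, 12.6% for Hspb1 and 8.02% for Hsp90aa1. Near copies elsewhere in the genome matter as well. Stretches of 50 bases also present in a transcript of another gene made up 66.3% of the Hspa1a transcript, 62.3% of Hspa1b, 44.8% of Hspe1 and 44.8% of Hspd1, against 0 of Bag3 and of Hsph1. For Hspa1a and Hspa1b the other gene was mainly its copy, for Hspe1 mainly a retrogene and for Hspd1 mainly a processed pseudogene, as GENCODE annotates them. No option for reads that map to several places stands in the recorded counting command, and the division of reads between such genes is uncertain.

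Among the 8 tested heat shock genes, 1 rose on the low-NaCl diet, the mitochondrial co-chaperonin Hspe1, and 0 fell. Of all tested genes 1.71% rose and 1.7% fell, 3.41% in either direction, at the same threshold, an adjusted p under 0.05 in edgeR's quasi-likelihood test with Benjamini-Hochberg adjustment. At an unadjusted p under 0.05, 2 members were higher (Hspe1 and Hspd1) and 1 was lower (Hspa8), against 9.16% and 9.13% of all tested genes (18.3% in either direction). DESeq2 called 1 member higher and 1 lower, against 3.82% and 4.21% of all genes. Limma-voom called 0 in either direction, against 1.39% and 1.5%, and with sample weights it called 1 higher and 0 lower, against 5.6% and 5.67%. The groups did not overlap for 4 members (Hspe1, Hspd1, Dnajb1 and Bag3), all higher on low NaCl, where 12.2% of all tested genes were separated in that direction and 11.6% in the other. The median log2 fold change, low NaCl minus high NaCl, was 0.27 over the 8 members and -0.0018 over all tested genes. Among the 8, Hspa8, the member that DESeq2 called lower, was counted only in bases outside coding transcripts, and Hsph1 mostly so.

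**Figure D1:**
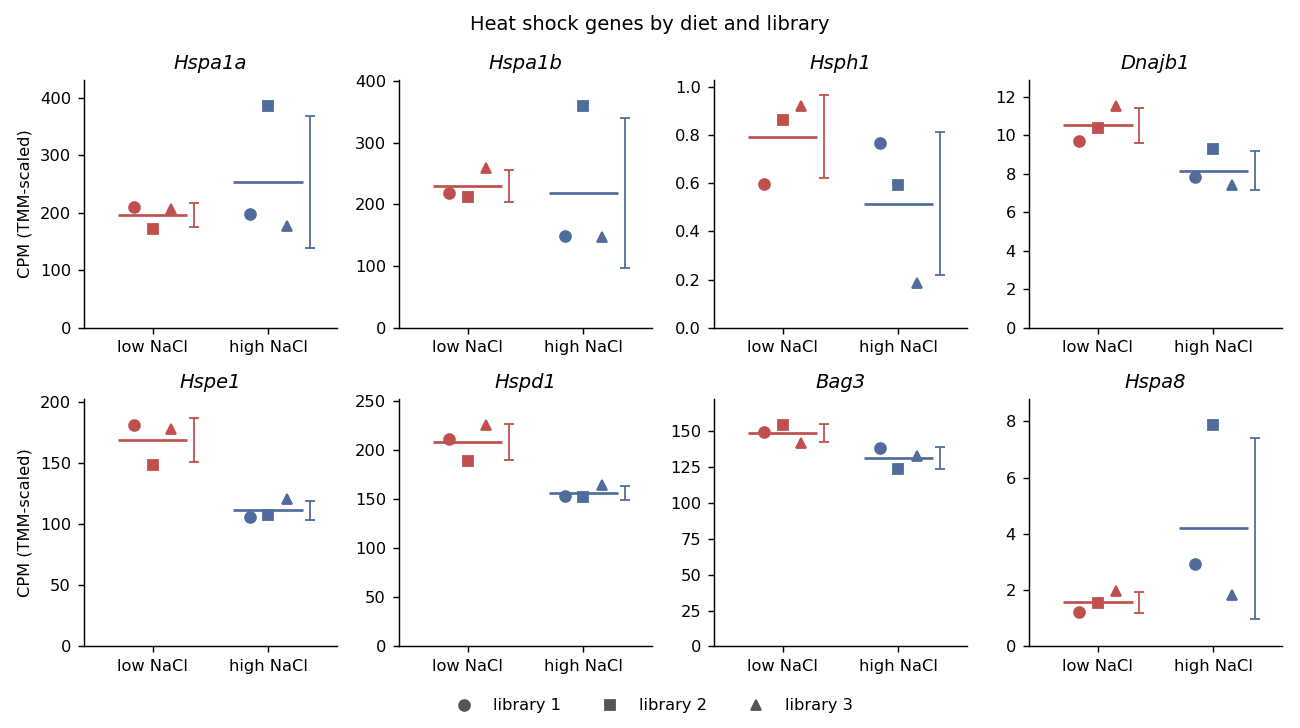
TMM-scaled CPM (linear axis from 0) of the 8 tested heat shock genes in each library, low NaCl left of high NaCl in every panel, with the symbol giving the library number, the line the mean and the bar ± 1 SD (n = 3). Hspe1, Hspd1, Bag3 and Dnajb1 do not overlap between diets, and high-NaCl library 2 is the highest point for Hspa1a, Hspa1b and Hspa8.

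The mitochondrial chaperonin pair was higher on low NaCl, with a difference past the threshold for the lid subunit only. Hspe1 (chromosome 1, 55088148 to 55091317, plus strand, mm10, 4 exons) measured 181, 148 and 178 CPM (counts scaled to a common library size with TMM factors) in low-NaCl libraries, against 106, 108 and 120 CPM in high-NaCl libraries. Every low-NaCl library lay above every high-NaCl library. The means were 169 ± 18.0 CPM on low NaCl and 111 ± 7.85 CPM on high NaCl (SD, n = 3 each), a log2 fold change of 0.60 ± 0.14 (SE), or 1.52-fold (95% interval 1.23 to 1.88), with an adjusted p of 0.0447 in edgeR. In bulk RNA, fewer cells of a type and less RNA per cell cannot be told apart, and this holds for every gene below.

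Hspd1, the chamber subunit (chromosome 1, 55077834 to 55087932, minus strand, 12 exons), measured 211, 188 and 225 CPM in low-NaCl libraries, against 153, 152 and 164 CPM in high-NaCl libraries. These groups were also separated. The means were 208 ± 18.5 CPM on low NaCl and 156 ± 6.91 CPM on high NaCl, a log2 difference of 0.41 ± 0.13, which missed the threshold (adjusted p = 0.129 in edgeR). The fold was 1.33, with a 95% interval of 1.09 to 1.63 that overlapped that of Hspe1. With the replicate number as a block in edgeR both genes passed (adjusted p = 0.0104 for Hspe1 and 0.0334 for Hspd1). The labels do not say that the numbers pair the libraries.

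The ratio of Hspe1 to Hspd1 counts, chosen after their values were seen, was 0.857, 0.787 and 0.791 in low-NaCl libraries, against 0.693, 0.710 and 0.732 in high-NaCl libraries. All low-NaCl ratios were above all high-NaCl ratios, and the two-sided exact permutation p was 0.1, the smallest that 3 against 3 libraries can give. The annotated Hspd1 gene extends to base 55088243, past the Hspe1 start, on the other strand. Of 50-base stretches of Hspe1, 8.69% are shared with Hspd1. In counts without strand, Hspd1 reads there could be counted for Hspe1, which was not tested.

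The call on Hspe1 was close to the threshold. It ended without any 1 of the 6 libraries: the adjusted p in edgeR was 0.0912, 0.0915 and 0.184 without low-NaCl libraries 1, 2 and 3, and 0.0948, 0.0516 and 0.127 without high-NaCl libraries 1, 2 and 3, while the log2 fold change stayed between 0.55 and 0.69. It also ended with total-count scaling (0.0582), limma-voom (0.0504) and a lane term (0.296), and with each identifier tested alone (0.0529). The lane term left the diet difference to be estimated in lane 1 alone, which held low-NaCl library 1 and high-NaCl library 1. Within that lane the log2 difference was 0.77 for Hspe1 and 0.47 for Hspd1. Lane 2 held the other low-NaCl libraries and lane 3 the other high-NaCl libraries, so diet and lane cannot be told apart there.

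**Figure D2:**
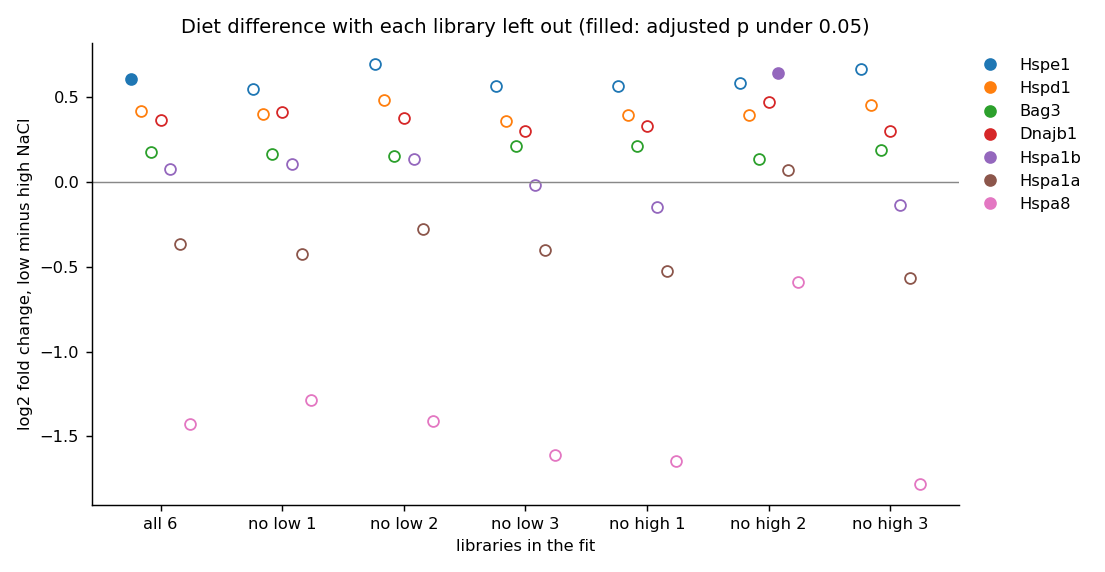
Log2 fold change (low NaCl minus high NaCl) of 7 heat shock genes with all 6 libraries and with each library left out in turn, where a filled point has an adjusted p under 0.05. Hspe1 stays between 0.55 and 0.69 with a filled point only with all libraries, and Hspa1b has its only filled point, at 0.64, without high-NaCl library 2.

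The inducible Hsp70 genes did not differ between diets beyond the spread of the libraries, and that spread came mostly from 1 library. Hspa1a (chromosome 17, 34969359 to 34972156, minus strand, 1 exon) measured 210, 172 and 207 CPM in low-NaCl libraries, against 197, 385 and 177 CPM in high-NaCl libraries. Hspa1b (chromosome 17, 34956429 to 34959238, minus strand, 1 exon) measured 218, 212 and 260 CPM in low-NaCl libraries, against 148, 359 and 147 CPM in high-NaCl libraries. High-NaCl library 2 was the highest of the 6 for both genes, and the groups overlapped.

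For Hspa1a the means were 197 ± 20.9 CPM on low NaCl and 253 ± 115 CPM on high NaCl, a log2 fold change of -0.36 ± 0.27 (adjusted p = 0.521 in edgeR). For Hspa1b they were 230 ± 25.8 CPM on low NaCl and 218 ± 122 CPM on high NaCl, a log2 difference of 0.077 ± 0.31 (adjusted p = 0.923). The 95% intervals of the fold were 0.512 to 1.18 and 0.648 to 1.72. They leave room for a sizeable fall of Hspa1a on low NaCl and for sizeable changes of Hspa1b either way. Without high-NaCl library 2 the log2 fold change of Hspa1a was 0.070 and that of Hspa1b was 0.64 ± 0.14, which passed the threshold (adjusted p = 0.0376). Leaving out that library was singled out after its values were seen.

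Because reads of the copies may be exchanged, their sum is the safer quantity. Hspa1a and Hspa1b together measured 429, 385 and 467 CPM in low-NaCl libraries, against 345, 744 and 325 CPM in high-NaCl libraries. High-NaCl library 2 was 2.22 times the mean of the other high-NaCl libraries and the other 5 libraries lay between 325 and 467 CPM. Counted as 1 gene, the pair gave a log2 fold change of -0.14 ± 0.29 (adjusted p = 0.839 in edgeR), and of 0.35 ± 0.15 (adjusted p = 0.183) without high-NaCl library 2. Neither fit called the pair.

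The balance within the pair separated the diets. The ratio of Hspa1b to Hspa1a counts was 1.04, 1.23 and 1.25 in low-NaCl libraries, against 0.751, 0.932 and 0.832 in high-NaCl libraries. Low-NaCl ratios were all above high-NaCl ratios, high-NaCl library 2 included, with a two-sided exact permutation p of 0.1, again the smallest possible. This ratio was also chosen after its values were seen, and a difference in how reads of near copies were placed was not tested.

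**Figure D3:**
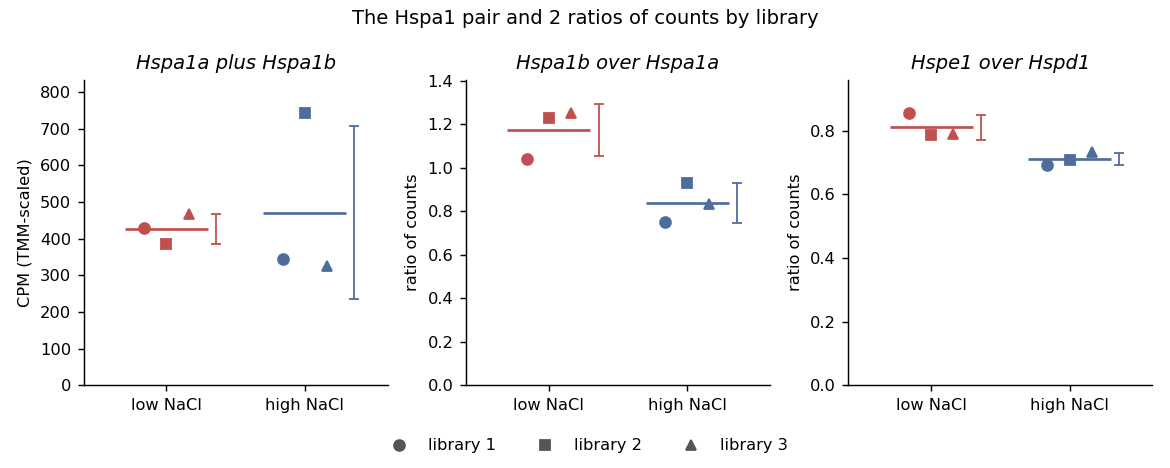
The summed CPM of Hspa1a and Hspa1b (left), the Hspa1b to Hspa1a ratio of counts (middle) and the Hspe1 to Hspd1 ratio of counts (right) in each library, low NaCl left of high NaCl, with the mean and ± 1 SD (n = 3). The sum reaches 744 CPM in high-NaCl library 2 alone, while both ratios are higher in every low-NaCl library than in any high-NaCl library.

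The deposited counts for Hspa8, the gene of the constitutive Hsc70, did not measure its messenger RNA. All its countable bases, 1057 in 5 segments of chromosome 9 between 40802128 and 40804931, lay in introns of the coding transcripts, within 1 identifier that retains them. Of these, 262 bases are the small nucleolar RNAs Snord14c, Snord14d and Snord14e. The counts were 49, 68 and 83 in low-NaCl libraries, against 106, 411 and 69 in high-NaCl libraries.

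On the CPM scale these were 1.22, 1.55 and 1.96 on low NaCl, against 2.91, 7.86 and 1.84 on high NaCl. High-NaCl library 2 was 2.70 times the highest other library, a gap of at least 2 times that it showed in 0.418% of tested genes, and high-NaCl library 3 lay within the low-NaCl range. The log2 fold change was -1.43 ± 0.48 with an adjusted p of 0.147 in edgeR and 0.0303 in DESeq2. Without high-NaCl library 2 it was -0.59 (adjusted p = 0.292 in edgeR).

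None of the members that are cofactors of Hsp70 (Dnajb1, Bag3 and Hsph1) passed the test. Dnajb1, the J-protein that delivers clients (chromosome 8, plus strand), measured 9.69, 10.4 and 11.5 CPM in low-NaCl libraries, against 7.81, 9.28 and 7.39 CPM in high-NaCl libraries. The groups were separated by a small gap, and edgeR gave a log2 difference of 0.36 ± 0.17 with an adjusted p of 0.297. Bag3, the exchange factor that also links clients to autophagy (chromosome 7, 128523583 to 128546979, plus strand, 4 exons), measured 150, 154 and 142 CPM in low-NaCl libraries, against 138, 123 and 133 CPM in high-NaCl libraries. Its groups were separated too, by the narrowest relative margin of the 4, at 0.18 ± 0.12 on the log2 scale (adjusted p = 0.50). The 95% interval of the Bag3 fold was 0.933 to 1.37.

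Hsph1, the Hsp110 exchange factor (chromosome 5, minus strand), was counted mostly in an identifier whose countable bases lie outside coding transcripts. It had 24, 38 and 39 counts in low-NaCl libraries, against 28, 31 and 7 in high-NaCl libraries. The groups overlapped and the log2 fold change was 0.62 ± 0.48 (adjusted p = 0.552 in edgeR), with a 95% interval of the fold of 0.724 to 3.24. Hsp90aa1, the inducible cytosolic Hsp90 (chromosome 12, minus strand), had 2, 4 and 0 counts in low-NaCl libraries, against 6, 0 and 11 in high-NaCl libraries, too few for a test. Hspb1, the small heat shock protein (chromosome 5, plus strand), had 0 counts in all 6 libraries. With so few countable bases, these values do not measure how abundant either messenger RNA was.

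Levels per countable kilobase are given for the 6 members counted mostly in coding exons or UTRs, and reads lost to near copies were not tested. Hspe1 was the highest of these 6 on this scale, at 220 ± 23.5 CPM on low NaCl and 145 ± 10.2 CPM on high NaCl (SD, n = 3 each). Hspd1 measured 89.2 ± 7.94 CPM on low NaCl and 67.0 ± 2.96 CPM on high NaCl. Hspa1b measured 81.9 ± 9.19 CPM on low NaCl and 77.6 ± 43.4 CPM on high NaCl, and Hspa1a 70.3 ± 7.49 CPM and 90.5 ± 41.0 CPM on the same diets. In every low-NaCl library Hspd1 was above Hspa1b, and Hspa1b above Hspa1a. In every high-NaCl library Hspa1a was above Hspa1b, while the place of Hspd1 against them varied by library. Differences between genes were not tested. Bag3 came next at 57.2 ± 2.45 CPM on low NaCl and 50.6 ± 2.86 CPM on high NaCl, and Dnajb1 at 18.3 ± 1.58 CPM on low NaCl and 14.2 ± 1.72 CPM on high NaCl.

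Across the 6 libraries, Hspe1 varied most like Tmed9, a cargo receptor between the endoplasmic reticulum (ER) and Golgi, with a Pearson r of 0.999 for log2 CPM over 4864 protein-coding genes. Hspd1 was at place 2 (r = 0.989) and Ubxn4, an ER membrane protein of protein degradation, at place 3 (r = 0.988). Dnajb1 was at place 590, Bag3 at 694, Hspa1b at 2177 and Hspa1a at 3632. The intercalated cell factor gene Foxi1 was at place 266 (r = 0.858) and the principal cell water channel gene Aqp2 at 4636 (r = -0.807). Both were picked by hand, and edgeR called both by diet (log2 fold change 1.40 and -1.28). No other marker of these cell types was placed. Not all of them differed by diet: Rhcg had -0.13 and Kcnj1 0.029. Whether Hspe1 varied with either cell type was not tested. The Hspa1a and Hspa1b sum varied most like Mex3c (r = 0.983), Nhlrc4 (r = 0.983) and Srfbp1 (r = 0.975), with Dnajb1 at place 1160 and Hspe1 at 2484. That sum was 744 CPM in high-NaCl library 2 and 325 to 467 CPM in the others, so its correlations can rest largely on that library. All these correlations are descriptions over 6 libraries that include both diets.

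Among other cytosolic chaperones and co-chaperones, 28 of 33 genes were tested. Of these, 3 rose and 0 fell, against 1.71% and 1.7% of all tested genes, and the median log2 fold change was 0.24. Ahsa1, which stimulates the ATPase of Hsp90, averaged 39.9 ± 5.42 CPM on low NaCl and 18.2 ± 6.66 CPM on high NaCl, a log2 fold change of 1.13 ± 0.24 (adjusted p = 0.0363 in edgeR). Chordc1, an Hsp90 partner, had 0.74 ± 0.16 (adjusted p = 0.0361), and Stip1, the adaptor between Hsp70 and Hsp90, had 0.59 ± 0.13 (adjusted p = 0.0416).

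These calls ended without several libraries, with total-count scaling (0.0644 to 0.114) and with a lane term (0.206 to 0.475). The adjusted p without low-NaCl library 1 was 0.0569 for Stip1. Without low-NaCl library 2 it was 0.124 for Ahsa1, 0.0966 for Chordc1 and 0.158 for Stip1, and without low-NaCl library 3 it was 0.109, 0.140 and 0.198 in that order of genes. Without high-NaCl library 1 it was 0.0820, 0.0838 and 0.0850, and without high-NaCl library 3 it was 0.146, 0.105 and 0.170, in the same order. The fourth gene by p, Hspb8, a small heat shock protein that works with Bag3, had 0.81 ± 0.23 (adjusted p = 0.0873, and 0.0340 without high-NaCl library 2). In that list of 28, 9 genes were higher and 1 lower at an unadjusted p under 0.05, against 9.16% and 9.13% of all tested genes. DESeq2 called 5 higher and 0 lower, against 3.82% and 4.21%.

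The heat shock factors were not called in either direction, at either an adjusted p under 0.05 or an unadjusted one, and DESeq2 and limma-voom also called 0 of the 3 tested. The log2 difference of Hsf2 was 0.30 ± 0.15 (adjusted p = 0.334 in edgeR), Hsbp1, a binding protein that restrains the factors, 0.030 ± 0.15 (0.937) and Hsf1 -0.17 ± 0.44 (0.873). Hsf1 was 8.05% countable, at 0.372 ± 0.0760 CPM on low NaCl and 0.423 ± 0.158 CPM on high NaCl, and its sign and that of Hsbp1 each flipped in 2 alternatives. Messenger RNA does not measure the activity of these factors.

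In the cytosolic TRiC chaperonin and prefoldin, 13 of 14 genes were tested, and edgeR, DESeq2 and limma-voom called 0 in either direction. At an unadjusted p under 0.05 in edgeR, 2 were higher and 0 lower, against 9.16% and 9.13% of all tested genes. The median log2 fold change was 0.19. Cct6a was called higher by limma-voom with sample weights (adjusted p = 0.0296) and by edgeR with the replicate block (0.0216). The leading genes were Cct5 (0.37 ± 0.16, adjusted p = 0.242), Cct6a (0.47 ± 0.20, 0.251), Cct8 (0.23 ± 0.13, 0.395) and Pfdn5 (-0.32 ± 0.20, 0.445). In the other mitochondrial chaperones and proteases, 15 of 18 were tested, and 0 were called by edgeR, DESeq2 or limma-voom. At an unadjusted p under 0.05 in edgeR, 1 was higher and 1 lower, against the same shares of all tested genes. The median was 0.10. Hscb, which serves iron-sulfur cluster assembly, had -0.36 ± 0.13 (adjusted p = 0.174), and Hspa9, the mitochondrial Hsp70, had 0.25 ± 0.14 (0.379). Afg3l2, a membrane protease, had 0.39 ± 0.17 (0.250) and Clpb, a disaggregase, 0.31 ± 0.14 (0.296). With sample weights limma-voom called Afg3l2 higher (adjusted p = 0.0331) and Hscb lower (0.0373), and edgeR called Afg3l2 higher without high-NaCl library 2 (0.0314).

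Of 6 other heat-inducible genes, edgeR called 0, and 1 was lower at an unadjusted p under 0.05, against 9.13% of all tested genes. DESeq2 called the same 1 lower, against 4.21%. That gene was Ubb, a polyubiquitin gene with 20.1% of its bases countable, at 1.04 ± 0.283 CPM on low NaCl and 2.17 ± 0.492 CPM on high NaCl, a log2 fold change of -1.06 ± 0.30 (adjusted p = 0.0943 in edgeR). Sqstm1, an autophagy receptor, had 0.29 ± 0.14 (0.317) and Dedd2 0.42 ± 0.28 (0.471).

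**Figure D4:**
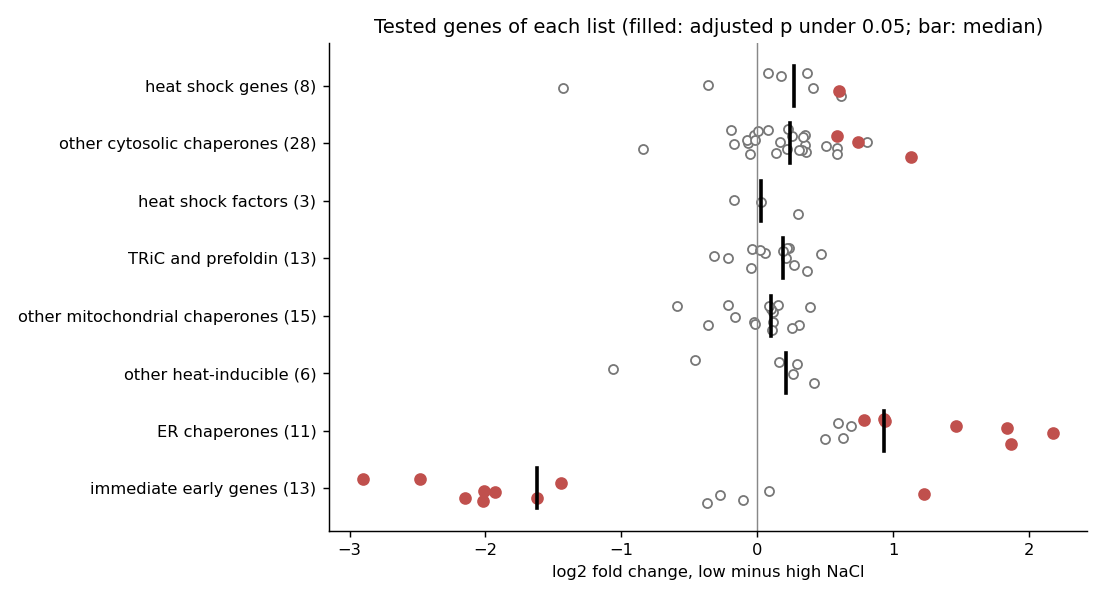
Log2 fold change (low NaCl minus high NaCl, horizontal axis) of each tested gene in 8 lists, with the number tested in brackets, a bar at the median and filled points for an adjusted p under 0.05. The heat shock genes have a median of 0.27 with 1 filled point, the ER chaperones a median of 0.94 and the immediate early genes a median of -1.62.

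Chaperones of the ER and immediate early genes, which dissociation can also induce, moved in opposite directions in the same libraries. Of 11 tested ER chaperones 7 rose and 0 fell, against 1.71% and 1.7% of all tested genes (median log2 fold change 0.94). They were led by Manf (2.18 ± 0.20), Creld2 (1.84 ± 0.19), Sdf2l1 (1.87 ± 0.22) and Pdia4 (1.46 ± 0.20). Of 13 tested immediate early genes 1 rose and 8 fell, against the same shares of all tested genes (median -1.62). They were led by Fosb (-2.90 ± 0.18), Ier2 (-2.02 ± 0.15), Fos (-2.48 ± 0.25) and Junb (-1.62 ± 0.20). Of these 8 named genes, Pdia4 was not called without high-NaCl library 3 (adjusted p = 0.0521 in edgeR), and with a lane term 7, all but Fosb, were not called (0.103 to 0.206). The summed level of the immediate early genes was 1699, 1632 and 1495 CPM on low NaCl, against 2543, 3095 and 2858 CPM on high NaCl. High-NaCl library 2, the highest for the Hspa1 pair, also had the highest immediate early sum, while Hspe1 and Hspd1 in that library lay with the other high-NaCl libraries. Whether dissociation had a part in these values was not tested.

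The libraries held 40101899 to 46861531 counts. The mitochondrial share of counts was 20.5 to 21.8% on low NaCl and 21.9 to 29.9% on high NaCl. The sums of some cell type markers were separated by diet, those of others were not. The largest sum was that of the 6 connecting tubule and distal convoluted tubule markers, nearly all of it Klk1. It was 28709 to 31836 CPM on low NaCl and 30098 to 38905 CPM on high NaCl. Among them edgeR called Calb1 (log2 fold change -1.36) and Trpv5 (-1.43) lower, and did not call Klk1 (-0.16) or Slc12a3 (0.48). The 10 intercalated cell markers were all at 1 CPM or more in every library. They summed to 5503 to 9497 CPM on low NaCl and 4497 to 5253 CPM on high NaCl. Among them Rhcg had a log2 fold change of -0.13, and edgeR did not call Rhcg, Atp6v1b1, Car2, Insrr or Slc26a4. Of the 10 principal cell markers, 5 reached 1 CPM in every library and Gata3 was at 0. They summed to 3149 to 4786 CPM on low NaCl and 8802 to 10952 CPM on high NaCl. Kcnj1 did not follow, with a log2 fold change of 0.029. The 4 thick ascending limb markers, with Cldn10 at 0, summed to 92.5 to 105 CPM on low NaCl and 45.3 to 64.5 CPM on high NaCl. The part of cell composition in the Hspe1 difference was not tested. Markers of immune cells summed to at most 0.330 CPM on low NaCl and 0.727 CPM on high NaCl, and those of endothelium to at most 2.41 CPM on low NaCl and 2.31 CPM on high NaCl.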

How the data were processed

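The authors' counting tool was featureCounts 1.5.0-p3, per the file headers, run on exons from UCSC (mm10), and the recorded command sets no strand, overlap or multi-mapping option. The deposited values are raw counts per transcript identifier, 1 file per library. FastQC, Subread and edgeR also stand in the submitters' processing notes, while the aligner was not given in the sources used here. Counts without strand cannot separate a gene from an overlapping antisense one. Of 59121 identifiers, 52383 were matched to GENCODE genes by at least 50% of exonic bases on the same strand and summed to 24815 genes. The other 6738 (5.648% of counts) entered library sizes only.

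The test was that of edgeR 4.0.16 (R 4.3.3) on the gene sums: filterByExpr by diet, TMM factors, glmQLFit with robust estimation and glmQLFTest without covariates, with Benjamini-Hochberg adjustment across 10516 genes and calls at an adjusted p under 0.05. Each SE is the size of the log2 fold change over the root of its F statistic, and the biological coefficient of variation was 21.6%. Ratios were tested with an exact permutation test (SciPy 1.17.1, Python 3.11.15). Within-lane differences add 0.1 CPM before the log. The procedure was tested on simulated counts. Lanes are those in the read file names. Depth was 40101899 to 46861531 counts per library, and a gene's precision depends also on its countable share. No 2 libraries of a diet were duplicates (chi-square per degree of freedom 34.6 to 221).

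The members and lists were chosen with earlier results of these data known. Genes named are the 10 members, Hsf1, the 4 genes with the smallest p in each wider list, and the 3 genes most correlated with Hspe1 and with the Hspa1 sum. A gene that this rule names is not reported here. Alternatives were other scalings and filters, DESeq2 1.42.0, limma-voom (limma 3.58.1) with and without sample weights, no robust estimation, a replicate block, a lane term, each library left out, and other ways of summing identifiers.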

Additional observations from a re-analysis of the deposited data

How the results depend on the processing

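Of 168 values that alternatives gave for the 8 tested heat shock genes, 149 kept direction and side of the threshold, 10 were no longer past it, 3 passed it and 6 reversed. For 27 other named genes, 543 of 584 kept both. The count of members that rose, 1 in the reported fit, was 0 with total-count scaling, limma-voom, a lane term and each identifier alone, and 0 to 1 with each library left out, the 1 being Hspa1b without high-NaCl library 2. The count that fell, 0, was 1 with DESeq2 (Hspa8). Over all genes, 180 rose and 179 fell. These counts were 80 and 55 with total-count scaling, 402 and 443 with DESeq2, 589 and 596 with sample weights, 1 and 2 with a lane term, 32 to 290 and 36 to 252 with each library left out, and without a filter 274 fell. Log2 fold changes reversed with a lane term to 0.093 for Hspa1a and -0.37 for Hsph1, and under sample weights to 0.048 for Hsf1 and -0.022 for Hsbp1. With each library left out, Hspa1a spanned -0.56 to 0.070 (positive without high-NaCl library 2), Hspa1b -0.15 to 0.64 (negative without low-NaCl library 3, high-NaCl library 1 or high-NaCl library 3), Hsf1 -0.33 to 0.15 (positive without high-NaCl library 1) and Hsbp1 -0.088 to 0.089 (negative without low-NaCl library 1). Except where fewer libraries or reads entered by construction, the cause was not tested. With the replicate number as a block 2 members rose, and 457 genes rose and 437 fell. Deviations of same-numbered libraries correlated at 0.30, 0.37 and -0.06, and those of differently numbered libraries at -0.37 to 0.11. The labels do not say whether the numbers pair libraries, and these values do not settle it. Hspa1a and Hspa1b, with 1 exon, have no value from identical introns, and Hspa8, Dnajb1 and Hsph1 none at 50% countable. Counting Hspa1a and Hspa1b as 1 gene and an overlap of at least 80% were chosen after seeing the data. Hsph1, Hspa8, Hsp90aa1 and Hspb1 had low counts and under 50% of bases countable, and what more depth would add was not tested.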
